A study of Mus musculus with 768 samples.

Results

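The genes described here are Cnr1, the gene of the CB1 cannabinoid receptor, and 6 genes of enzymes that make or break down endocannabinoids, which are Dagla, Daglb, Napepld, Mgll, Abhd6 and Faah. They were taken by name, 7 of 24489 genes listed, and all 7 have values in the tables. Their reads were counted in single nuclei of mouse striatum in 768 wells, the same number for each of 2 genotypes. All mice were untreated C57BL/6 animals with H2BG, which the labels do not describe further, and carried Oprm1-Cre or Slc32a1-Cre beside it. By the series' design text Oprm1-Cre served to take in patch neurons and Slc32a1-Cre GABAergic neurons. Oprm1 is the gene of the mu opioid receptor and Slc32a1 that of the vesicular GABA transporter. Age and sex are not in the labels, and neither is the number of animals behind a plate. Each genotype fills 1 plate and counts as 1 sample, without replicates, so no p-value is given, and plate, animals and genotype cannot be told apart.

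Endocannabinoids are lipids that a neuron releases on demand from its membrane and that act on CB1 receptors, mostly on the axon terminals of other neurons, where they lower transmitter release. The most abundant one in brain, 2-arachidonoylglycerol, is made by diacylglycerol lipases and broken down by monoacylglycerol lipase and ABHD6. The other, anandamide, is released by NAPE-PLD among other routes and broken down by fatty acid amide hydrolase. In the striatum CB1 is made by spiny projection neurons (SPNs) and by some interneurons, and its mRNA is known to be densest dorsolaterally.

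After wells with few reads were removed, 736 nuclei remained, 92.4% of the Oprm1-Cre wells and 99.2% of the Slc32a1-Cre wells, with a median of 169398 and 175337 reads on genes. Numbers of nuclei between 100 and the plate's size are given to 2 digits and as shares. Interneuron-like nuclei numbered 15 with Oprm1-Cre and 17 with Slc32a1-Cre. D2-like SPNs numbered 24 with Oprm1-Cre (6.76% of nuclei) and about 150 with Slc32a1-Cre (38.8%), and D1-like SPNs about 300 (83.9%) and about 200 (51.2%). A further 14 Oprm1-Cre and 18 Slc32a1-Cre SPN-like nuclei were undecided between the types. The names come from the markers that formed the classes, so levels of these markers describe the classes and are no check of the names. D2-like nuclei had medians of 461 and 467 CPM of Drd2, the D2 receptor gene, in the Oprm1-Cre and the Slc32a1-Cre plate, where D1-like nuclei had a median of 0. CPM are counts per 1000000 reads on genes. Levels below are CPM of the reads summed over a class, followed in parentheses by exact Poisson 95% intervals that cover counting error only. The intervals take reads as independent, and without molecular identifiers they may be too narrow. In summed reads, fewer cells with a transcript and less of it per cell cannot be told apart, so shares of nuclei are given too.

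In the GRCm38 annotation, the build the submitters name as mm10, Cnr1 is on the plus strand at chr4:33924593-33948831 and Faah on the minus strand at chr4:115967145-116017926. Dagla lies on the minus strand at chr19:10245265-10304877 and Daglb on the plus strand at chr5:143464584-143505942. Napepld is on the minus strand at chr5:21662901-21701396, Mgll on the plus strand at chr6:88724412-88828360 and Abhd6 on the plus strand at chr14:8002902-8056763. Daglb shares 2309 of its 9567 exon bases with Rac1 on the opposite strand. Whether counting used strand is not stated, so reads of Daglb and Rac1 may be mixed. Their levels had a Spearman's rho of 0.10 over 697 SPN-like nuclei.

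Per kilobase of exon, Cnr1 stood above the enzymes in every class. It reached 471 CPM per kilobase in Oprm1-Cre D2-like nuclei and 272.7 in Slc32a1-Cre D2-like nuclei, and 293.9 and 317.6 in D1-like nuclei of the same plates. Abhd6 came second in all 6 sums of D2-like, D1-like and interneuron-like nuclei, with 27.8 to 56.1 CPM per kilobase. In Oprm1-Cre D1-like nuclei the order went on with Dagla at 11.8, Mgll at 9.25, Daglb at 7.39, Faah at 3.89 and Napepld at 0.910 CPM per kilobase. In Slc32a1-Cre D1-like nuclei it was Dagla at 11.2, Daglb at 9.21 and Mgll at 4.82 CPM per kilobase, with Faah and Napepld both at 2.19. The first 3 places in D1-like nuclei were thus the same in both plates, while Mgll and Daglb changed places.

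Cnr1 was read in most SPNs of both types and both plates. The sum over D2-like nuclei was 3033 CPM (2980 to 3087) with Oprm1-Cre and 1757 CPM (1742 to 1772) with Slc32a1-Cre. Over D1-like nuclei it was 1894 CPM (1882 to 1905) with Oprm1-Cre and 2047 CPM (2032 to 2062) with Slc32a1-Cre. D2-like nuclei were thus above D1-like nuclei in the Oprm1-Cre plate, by a log2 ratio with 5 CPM added to both levels of 0.68 (0.65 to 0.70), and below them with Slc32a1-Cre, by a log2 ratio of -0.22 (-0.24 to -0.20). Without the nuclei with the most Cnr1 reads, the Oprm1-Cre log2 ratio was 0.52.

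Single nuclei of both types overlapped throughout. In the Oprm1-Cre plate the quartiles of Cnr1 were 70.1, 1452 and 5629 CPM over D2-like nuclei, against 343.5, 1191 and 3075 CPM over D1-like nuclei. With Slc32a1-Cre they were 49.6, 843 and 2640 CPM over D2-like nuclei, against 167.4, 1146 and 2914 CPM over D1-like nuclei. In both plates D2-like nuclei had the lower first quartile. After each nucleus was thinned to 50000 reads, 79.2% (57.8 to 92.9) of D2-like and 86.8% (82.4 to 90.5) of D1-like Oprm1-Cre nuclei had a Cnr1 read, with exact Clopper-Pearson 95% intervals in parentheses. The shares were 78.4% (70.9 to 84.7) of D2-like and 82.99% (76.9 to 87.99) of D1-like Slc32a1-Cre nuclei. The intervals overlap in both plates. They cover the counting of nuclei within a plate and are no test, so no difference in the share of nuclei with a read is claimed. No class that should lack Cnr1 was large enough to give a background share. Of 29 Oprm1-Cre wells with too few reads to be kept, 9 had a Cnr1 read, 10 reads in all.

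**Figure D1:**
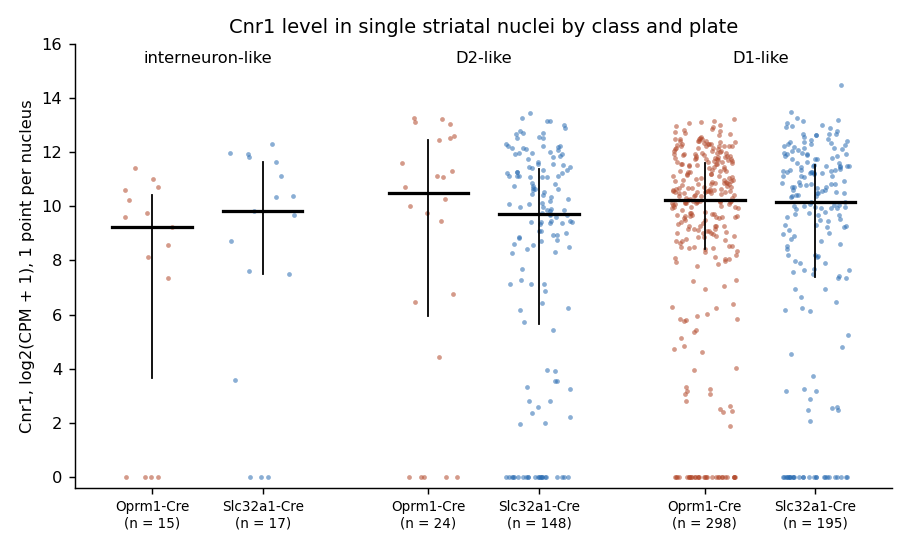
Cnr1 in single nuclei on a log2(CPM + 1) axis, by class and plate, with a thick line at the median and a thin line from the lower to the upper quartile. Every group starts at nuclei with 0, the highest nuclei lie between 2762 and 23180 CPM, and the medians lie between 608 and 1452 CPM.

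The spread of Cnr1 within a class was wide for a gene of its level. Its coefficient of variation over nuclei was 117.2% in D2-like and 107.004% in D1-like Oprm1-Cre nuclei, and 127.4% and 130.7% in the same types with Slc32a1-Cre. It was set beside the genes whose mean CPM lay within 2-fold of its own, 30 and 64 genes in D2-like and D1-like Oprm1-Cre nuclei and 83 and 64 in those with Slc32a1-Cre. Each of these genes had a lower coefficient of variation than Cnr1 in its group, with medians of 54.4%, 64.7%, 65.2% and 61.4% in the same order. At most 1 of them in a group had a read in a smaller share of thinned nuclei than Cnr1, and the median share was at least 97.97%.

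A few nuclei carried much of the transcript. Of 24 D2-like Oprm1-Cre nuclei, 7 were above 5000 CPM (29.2%, 12.6 to 51.1) and held 78.7% of the Cnr1 reads of the class, and 5 had no read. Of D2-like Slc32a1-Cre nuclei, 13 were above 5000 CPM (8.78%, 4.76 to 14.6) with 34.3% of the reads, and 23 had none. The upper band thus took a larger share of the few Oprm1-Cre D2-like nuclei, with intervals that overlap. Among D1-like nuclei, 31 with Oprm1-Cre (10.4%, 7.18 to 14.4) and 25 with Slc32a1-Cre (12.8%, 8.47 to 18.3) were above 5000 CPM, with 33.6% and 44.8% of the reads. No Cnr1 read was found in 31 D1-like Oprm1-Cre nuclei (10.4%) and 27 D1-like Slc32a1-Cre nuclei (13.8%).

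Between clusters of D1-like nuclei the level of Cnr1 differed more than between D2-like and D1-like nuclei. Clusters were made on both plates together with Cnr1, the enzymes and the other pathway genes left out, although genes that vary with Cnr1 took part, so these values are a description. The cluster led by Pi15, Fgf9 and Ism1 was the highest D1-like cluster of at least 10 nuclei in both plates, with 5003 CPM over 21 Oprm1-Cre and 4203 CPM over 40 Slc32a1-Cre nuclei. Cnr1 had a read in 21 of those 21 and 39 of those 40 nuclei. The cluster led by Clec12a and Ackr2 was at 1305 CPM over 15 Oprm1-Cre and 1132 CPM over 100 Slc32a1-Cre nuclei.

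In the cluster led by Mrvi1 and Robo3, Cnr1 summed to 2803 CPM over 96 Oprm1-Cre and 3290 CPM over 12 Slc32a1-Cre D1-like nuclei. In the cluster led by Nlrp10 and Zswim3, which had the most reads per D1-like nucleus, it summed to 1375 CPM over 34 Oprm1-Cre and 1701 CPM over 25 Slc32a1-Cre nuclei. The cluster led by Dlk1 and Cd34 showed the widest gap between plates among D1-like clusters of at least 10 nuclei in both, at 1171 CPM over about 130 Oprm1-Cre and 2550 CPM over 16 Slc32a1-Cre nuclei. Pdyn and Oprm1, markers of the patches, are among its 10 leading genes. Different clusters held most D1-like nuclei of the plates, the Dlk1-led and Mrvi1-led ones with Oprm1-Cre and the Clec12a-led and Pi15-led ones with Slc32a1-Cre.

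The Pi15-led cluster decided the sign of small differences. Without it, Cnr1 in D1-like nuclei was 1665 CPM with Oprm1-Cre and 1551 CPM with Slc32a1-Cre. The log2 ratio of D2-like over D1-like nuclei was then 0.86 in the Oprm1-Cre plate and 0.15 in the Slc32a1-Cre plate. The cluster had the highest Cnr1 of D1-like clusters and held almost no D2-like nuclei, only 1 with Slc32a1-Cre. Leaving it out took high nuclei from the D1-like side alone or nearly so. The rise of both ratios was thus built in, and their common sign is no finding. This alternative was chosen after seeing the data, because Cxcl14, a marker of another class, is among the cluster's 10 leading genes.

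D2-like nuclei fell mainly into 2 clusters. In the one led by Gpr52 and Gpr6, Cnr1 was at 3547 CPM over 19 Oprm1-Cre and 1859 CPM over about 120 Slc32a1-Cre nuclei. In the other, led by Ddias and Grik3, it was at 1603 CPM over 3 Oprm1-Cre and 949 CPM over 19 Slc32a1-Cre nuclei. Both clusters were higher with Oprm1-Cre, and the first was above the second in both plates.

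**Figure D2:**
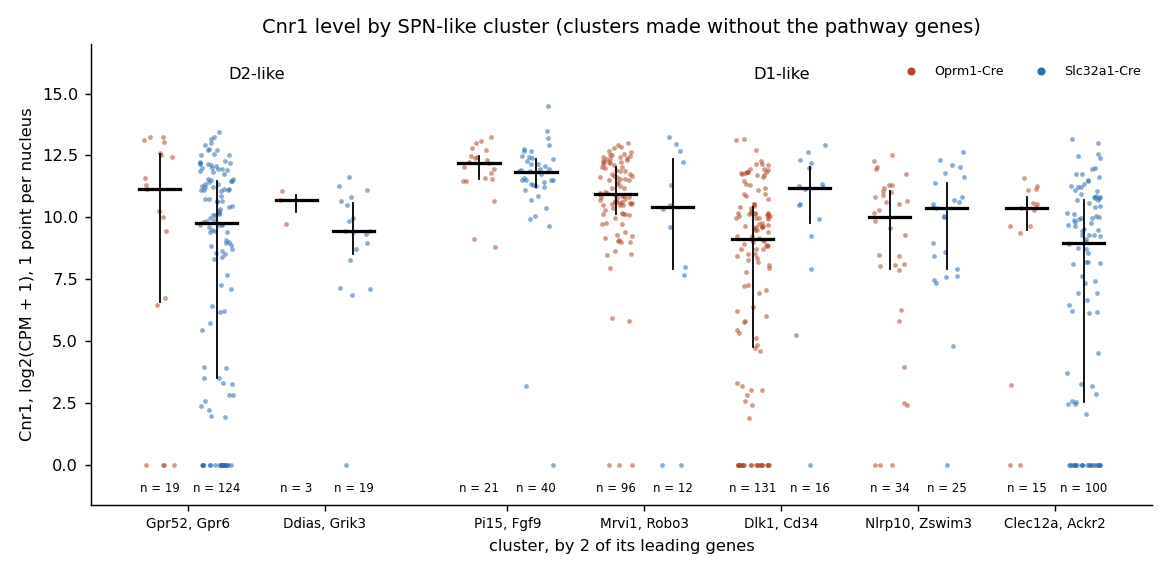
Cnr1 in single D2-like and D1-like nuclei on a log2(CPM + 1) axis, by cluster and plate, with medians as thick lines and quartiles as thin ones. D1-like nuclei of the cluster led by Pi15 and Fgf9 run from 443 to 9663 CPM with Oprm1-Cre and from 0 to 23180 CPM with Slc32a1-Cre. Those of the cluster led by Dlk1 run from 0 to 9098 CPM with Oprm1-Cre and from 0 to 7667 CPM with Slc32a1-Cre.

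Across nuclei of 1 class and plate, Cnr1 was lower where genes of the ventral or medial striatum were higher. The correlations below are Spearman's rho over thinned nuclei that share a plate and animals. They are descriptions, given for about 300 D1-like Oprm1-Cre nuclei, then about 150 D2-like and about 190 D1-like Slc32a1-Cre nuclei. With the mean level of Dlk1, Trhr, Crym, Wfs1 and Nnat, rho was -0.53, -0.50 and -0.45. With the mean level of the dorsolateral genes Gpr155 and Coch it was 0.32, 0.31 and 0.39. Of these 7 genes, Wfs1, for a protein of the endoplasmic reticulum, gave -0.45, -0.43 and -0.45 and Coch, for a secreted matrix protein, gave 0.36, 0.42 and 0.37. Crym, for a protein that binds thyroid hormone, gave -0.36, -0.41 and -0.20. The others were weaker or uneven, such as Gpr155 with 0.11, 0.06 and 0.25 and Nnat with -0.27, -0.22 and 0.02.

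Cnr1 followed the genes of patch and matrix less. With patch genes minus matrix genes, rho was 0.04, 0.24 and 0.15. Single patch genes differed in sign, as Kremen1 gave 0.24, 0.08 and 0.16, whereas Pdyn, the prodynorphin gene, gave -0.31, 0.01 and -0.22. Of the matrix genes, Calb1 gave -0.17, -0.40 and -0.15 and Sv2b -0.15, -0.13 and -0.22, below 0 in each group. Epha4 was above 0 in each, with 0.16, 0.01 and 0.01, and Id4 and Epha7 were uneven. With the mean level of the SPN markers rho was 0.28, 0.19 and 0.21, and with the reads per nucleus -0.01, -0.08 and -0.05. The part of SPN marker level in the regional values was not tested. With oligodendrocyte and astrocyte markers rho lay between -0.09 and 0.05.

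The genes most like Cnr1 were ranked by the lower of both plates' rho over D1-like nuclei, among 8774 genes with at least 10 CPM in both sums. The nuclear noncoding RNA Malat1 came first, with 0.49 in Oprm1-Cre and 0.47 in Slc32a1-Cre nuclei. Pde10a, for the cyclic nucleotide phosphodiesterase typical of SPNs, had 0.41 and 0.46, and Pcp4, for a calmodulin regulator, 0.41 and 0.41. The orphan receptor gene Gpr139 (0.37 and 0.43) and Coch (0.36 and 0.37) followed. In D2-like Slc32a1-Cre nuclei, which the ranking did not use, rho was 0.31 for Malat1, 0.33 for Pde10a, 0.21 for Pcp4, 0.11 for Gpr139 and 0.42 for Coch.

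At the opposite end, singled out after their values were seen, stood the collagen gene Col6a1 (-0.64 in Oprm1-Cre and -0.60 in Slc32a1-Cre D1-like nuclei), Wfs1 (-0.45 and -0.45) and Cpne6, for a calcium-dependent membrane-binding protein (-0.50 and -0.43). Col6a1 was farther from 0 than any gene at the upper end. In D2-like Slc32a1-Cre nuclei, rho was -0.37 for Col6a1, -0.43 for Wfs1 and -0.34 for Cpne6. In all, 47 of the 8774 genes reached 0.2 in both plates and 43 reached -0.2 in both.

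**Figure D3:**
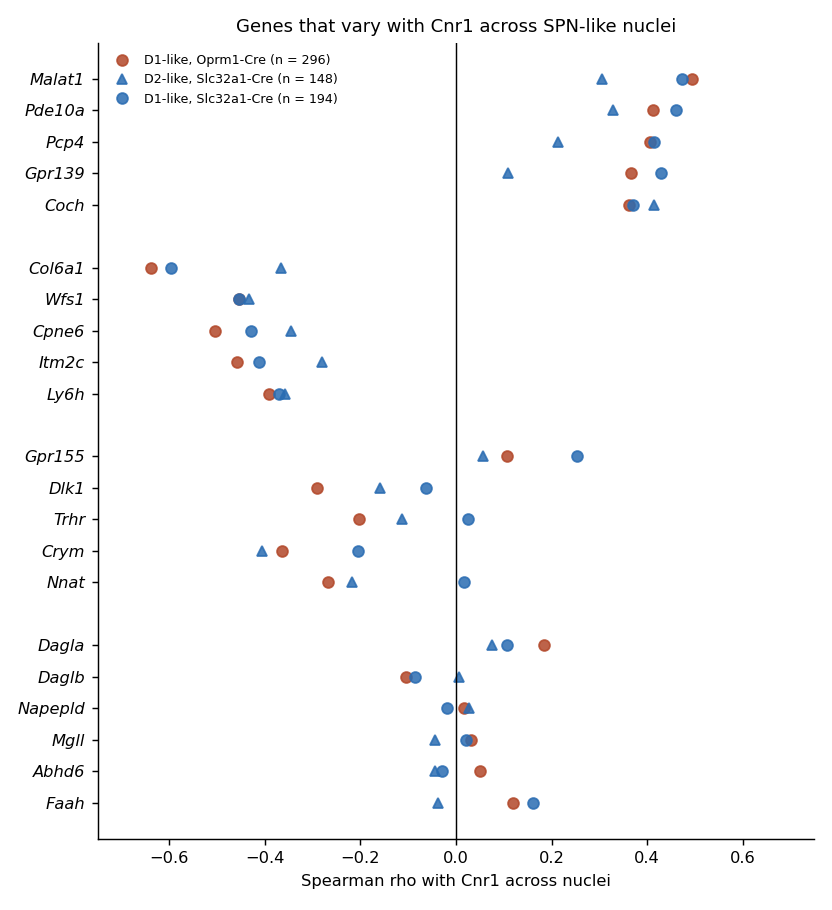
Spearman's rho of single genes with Cnr1 across thinned nuclei, as circles for D1-like nuclei of both plates and triangles for D2-like Slc32a1-Cre nuclei. From the top, the groups are the 5 genes most like Cnr1, the 5 most opposite, other regional genes and the 6 enzyme genes, which lie between -0.10 and 0.18.

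Interneuron-like nuclei had less Cnr1 than SPN-like nuclei in both plates. The sums were 876 CPM (843 to 909.7) over interneuron-like and 1957 CPM (1946 to 1968) over SPN-like Oprm1-Cre nuclei. They were 1377 CPM (1338 to 1417) over interneuron-like and 1903 CPM (1893 to 1913) over SPN-like Slc32a1-Cre nuclei. The log2 ratios were -1.16 (-1.21 to -1.1) and -0.46 (-0.51 to -0.42). With Slc32a1-Cre the ratio ranged from -0.66 to -0.22 over 11 alternatives and was past -0.5 in 3 of them. Medians were 608 CPM in interneuron-like and 1234 CPM in SPN-like Oprm1-Cre nuclei, but 918 CPM and 998 CPM in those with Slc32a1-Cre. After thinning, a Cnr1 read was found in 73.3% (44.9 to 92.2) of interneuron-like Oprm1-Cre and 82.4% (56.6 to 96.2) of interneuron-like Slc32a1-Cre nuclei, shares whose intervals take in those of the SPNs.

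The plates did not hold the same interneurons. A type led by Trh and Th numbered 12 nuclei with Oprm1-Cre and 2 with Slc32a1-Cre, and all 14 had reads of both genes. A type with Pthlh and Kit among its leading genes, 6 of its 10 nuclei with Pvalb reads, held Slc32a1-Cre nuclei alone. An Oprm1-Cre nucleus set aside from the classes was led by the marker list Pthlh, Pvalb, Th, Kit and Trh, which does not part this type from the Th type. A type led by Npy and Sst, all 8 nuclei with reads of Sst, Npy and Nos1, numbered 3 with Oprm1-Cre and 5 with Slc32a1-Cre. The Pthlh nuclei had the most Cnr1, 2198 CPM (2131 to 2266) with a median of 2711 CPM and a range from 0 to 5104 CPM. Both values are above those of SPN-like nuclei of the same plate, 1903 CPM with a median of 998 CPM. Th nuclei had 1087 CPM (1045 to 1129) over the 12 Oprm1-Cre nuclei, from 0 to 2762 CPM, and 185.3 CPM (150.4 to 225.8) over the 2 Slc32a1-Cre nuclei, with 179.6 and 192.7 CPM. Sst nuclei had 106.1 CPM (82.7 to 134.1) over the 3 Oprm1-Cre nuclei, with 1 of them above 0, and 526 CPM (483 to 572) over the 5 Slc32a1-Cre nuclei, from 0 to 1345 CPM. Th nuclei were thus above Sst nuclei with Oprm1-Cre and below them with Slc32a1-Cre, while Pthlh nuclei were above both types in the plate that held them. The ranges of the 3 types over both plates overlap, and 8 of 10, 12 of 14 and 5 of 8 nuclei had a read in this order of types. For the Pthlh type, type and plate cannot be told apart. In 2 of the 11 alternatives, which leave 3 interneuron-like Oprm1-Cre nuclei, all of the Sst type, the log2 ratio to SPN-like nuclei was -4.15 and -4.14.

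Among the enzymes of synthesis, Dagla codes for the diacylglycerol lipase that makes most 2-arachidonoylglycerol in adult brain. It had 53.1 CPM (46.3 to 60.6) in D2-like and 67.8 CPM (65.6 to 69.99) in D1-like Oprm1-Cre nuclei. With Slc32a1-Cre it had 44.8 CPM (42.4 to 47.3) in D2-like and 64.1 CPM (61.5 to 66.8) in D1-like nuclei. It was lower in D2-like nuclei of both plates, by log2 ratios of -0.33 (-0.51 to -0.14) and -0.47 (-0.56 to -0.38), neither of them beyond 0.5 in size. A Dagla read was found in 54.2% (32.8 to 74.4) of thinned D2-like and 53.7% (47.9 to 59.5) of D1-like Oprm1-Cre nuclei, and in 36.5% (28.7 to 44.8) of D2-like and 50.5% (43.3 to 57.8) of D1-like Slc32a1-Cre nuclei.

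In summed reads Dagla was lower in interneuron-like than in SPN-like nuclei of both plates. It had 21.5 CPM (16.6 to 27.4) in interneuron-like and 66.6 CPM (64.6 to 68.7) in SPN-like Oprm1-Cre nuclei, and 35.2 CPM (29.2 to 42.1) and 54.9 CPM (53.2 to 56.7) in those with Slc32a1-Cre. A Dagla read was found in 20% (4.33 to 48.1) of thinned interneuron-like and 53.2% (47.6 to 58.6) of SPN-like Oprm1-Cre nuclei. With Slc32a1-Cre these shares were nearly alike, at 41.2% (18.4 to 67.1) and 43.9% (38.7 to 49.2). A single nucleus held 48.5% of the interneuron-like reads with Oprm1-Cre and 42.1% with Slc32a1-Cre. The log2 ratios of the sums were -1.43 (-1.73 to -1.14) and -0.57 (-0.81 to -0.34). The sign held in all 11 alternatives, but in the Slc32a1-Cre plate the ratio was past -0.5 in 6 of them, ranging from -1.11 to -0.32. Leaving out the nuclei with the most Dagla reads gave -2.05 with Oprm1-Cre and -1.11 with Slc32a1-Cre. In the Oprm1-Cre plate the ratio ranged from -3.84 to -1.30, with the lowest values where the 3 Sst nuclei alone were left.

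Daglb, for the second diacylglycerol lipase, had 42.2 CPM (36.1 to 48.9) in D2-like and 70.7 CPM (68.5 to 72.9) in D1-like Oprm1-Cre nuclei. With Slc32a1-Cre it had 76.96 CPM (73.8 to 80.2) in D2-like and 88.1 CPM (85.01 to 91.2) in D1-like nuclei. A single nucleus held 57.5% of the reads of Oprm1-Cre D2-like nuclei, and the log2 ratio of -0.68 in that plate was -1.62 without the top nuclei. In interneuron-like nuclei it had 143.7 CPM (130.6 to 157.7) with Oprm1-Cre and 55.9 CPM (48.3 to 64.4) with Slc32a1-Cre, where 1 nucleus held 39.2% and 26.6% of the reads. The log2 ratio to SPN-like nuclei, 1.05 with Oprm1-Cre, was 0.53 without the top nuclei and 0.47, under 0.5, without possible doublets. Where the 3 Sst nuclei alone were left, it was 2.39 and 2.40.

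Napepld, for the phospholipase that releases anandamide, was read in few nuclei. Its sum was 0.485 CPM (0.0587 to 1.75) in D2-like and 3.60 CPM (3.12 to 4.14) in D1-like Oprm1-Cre nuclei, from 1 and 5 nuclei with a read. With Slc32a1-Cre it was 6.52 CPM (5.63 to 7.51) in D2-like and 8.67 CPM (7.73 to 9.70) in D1-like nuclei, from 7 and 8 nuclei. A single nucleus held 52.5% of the reads of D1-like Oprm1-Cre and 56.99% of those of D2-like Slc32a1-Cre nuclei. Interneuron-like nuclei had 2.61 CPM (1.13 to 5.13) with Oprm1-Cre and 17.2 CPM (13.1 to 22.1) with Slc32a1-Cre, from 1 and 2 nuclei.

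**Figure D4:**
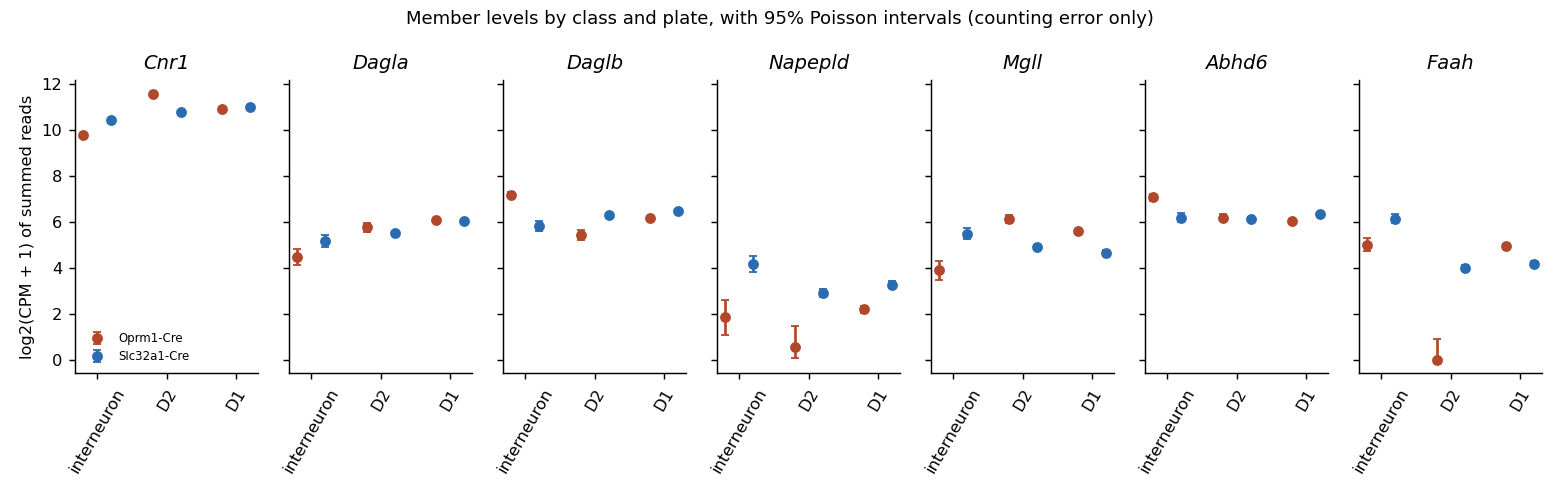
Levels of the 7 members in each class and plate as log2(CPM + 1) of the summed reads, with exact Poisson 95% intervals for counting error only. Cnr1 lies above all enzymes, Mgll is higher with Oprm1-Cre in D2-like and D1-like nuclei, and Faah is at 0 in Oprm1-Cre D2-like nuclei.

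Among the enzymes of breakdown, Mgll, for the lipase that clears most 2-arachidonoylglycerol, was higher with Oprm1-Cre in both SPN types. In D2-like nuclei it had 68.6 CPM (60.8 to 77.1) with Oprm1-Cre and 28.7 CPM (26.8 to 30.7) with Slc32a1-Cre, a log2 ratio of 1.13 (0.95 to 1.30). In D1-like nuclei it had 46.95 CPM (45.2 to 48.8) and 24.5 CPM (22.9 to 26.1), a log2 ratio of 0.82 (0.72 to 0.91). An Mgll read was found in 50% (29.1 to 70.9) of thinned Oprm1-Cre and 25.7% (18.9 to 33.5) of Slc32a1-Cre D2-like nuclei. In D1-like nuclei the shares were 33.8% (28.4 to 39.5) and 20.1% (14.7 to 26.4). The intervals overlap in D2-like nuclei and not in D1-like nuclei, and they cover the counting of nuclei within 1 plate each, not the spread between plates or animals. In all 11 alternatives tried the log2 ratio lay past 0.5, from 0.94 to 1.23 in D2-like and from 0.73 to 0.91 in D1-like nuclei.

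With patch minus matrix genes, rho of Mgll was -0.01, -0.04 and 0.13 in D1-like Oprm1-Cre, D2-like Slc32a1-Cre and D1-like Slc32a1-Cre nuclei. Most thinned nuclei of these groups had no Mgll read, so a weak rho is no finding. The part of patch neurons in the difference between plates was not tested. With the number of genes detected in a nucleus, rho of Mgll was 0.20, 0.23 and 0.14. D2-like nuclei had medians of 4018.5 detected genes with Oprm1-Cre and 3280 with Slc32a1-Cre. In D1-like nuclei the medians lay closer together, at 3762.5 and 3545. The part of gene number in the difference between plates was not tested. In interneuron-like nuclei the order of the plates was the opposite, with 14.01 CPM (10.1 to 18.9) in Oprm1-Cre and 43.9 CPM (37.2 to 51.5) in Slc32a1-Cre nuclei. By type, Th nuclei had 13.7 CPM (9.42 to 19.2) with Oprm1-Cre and 15.1 CPM (6.53 to 29.8) with Slc32a1-Cre, Sst nuclei 15.2 CPM (7.27 to 27.9) and 36.2 CPM (25.6 to 49.7), and the Slc32a1-Cre Pthlh nuclei 56.5 CPM (46.2 to 68.4).

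Abhd6, for a second lipase of 2-arachidonoylglycerol, which faces the inside of the cell membrane, had the most even class sums among the enzyme genes across SPNs, though Dagla varied less from nucleus to nucleus, with a coefficient of variation of 126.7% to 169.01% against 206.3% to 216.1% for Abhd6. It had 71.8 CPM (63.8 to 80.4) in D2-like and 65.7 CPM (63.6 to 67.9) in D1-like Oprm1-Cre nuclei, and 69.7 CPM (66.7 to 72.7) and 81.2 CPM (78.2 to 84.2) in those with Slc32a1-Cre. The log2 ratios of D2-like over D1-like nuclei were 0.12 with Oprm1-Cre and -0.21 with Slc32a1-Cre, and those of Oprm1-Cre over Slc32a1-Cre 0.04 in D2-like and -0.28 in D1-like nuclei. Interneuron-like nuclei had 132.6 CPM (120.01 to 146.1) with Oprm1-Cre and 71.9 CPM (63.2 to 81.4) with Slc32a1-Cre, with reads in 7 and 7 nuclei.

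Faah, for the hydrolase of anandamide, had no read in the 24 D2-like Oprm1-Cre nuclei, 0 CPM (0 to 0.894), and 30.4 CPM (29.01 to 31.9) in D1-like nuclei of that plate. The 0.727 CPM that 3 reads over the group would give is 41.9-fold lower than the sum of D1-like nuclei. That fold is set by this floor, and the upper end of the interval, 0.894 CPM, allows a smaller one. The reads of D1-like nuclei came from few nuclei, however. After thinning, 0 of 24 D2-like nuclei had a read, for which the exact interval ends at 14.2% and 3 nuclei of the total would be 12.5%, against 14.2% (10.4 to 18.7) of D1-like nuclei. These intervals overlap and are no test, so no difference in the share of nuclei is claimed. With Slc32a1-Cre, Faah had 14.9 CPM (13.5 to 16.3) in D2-like and 17.1 CPM (15.8 to 18.6) in D1-like nuclei, with a read in 4.73% (1.92 to 9.50) and 11.3% (7.24 to 16.7) of thinned nuclei. Without the nuclei of the Pi15-led cluster the log2 ratio of D2-like over D1-like nuclei there turned to 0.09, against -0.16 with them.

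In interneuron-like nuclei Faah had 31.3 CPM (25.3 to 38.2) with Oprm1-Cre and 69.8 CPM (61.3 to 79.3) with Slc32a1-Cre, with reads in 3 and 5 nuclei. A nucleus led by oligodendrocyte markers and left out of the classes had 1077 CPM of Faah, so these markers were set beside it. In Oprm1-Cre nuclei the 5 oligodendrocyte markers summed to 83.4 CPM in interneuron-like, 9.21 CPM in D2-like and 114.2 CPM in D1-like nuclei, with 2, 3 and 0 of them at 0. In Slc32a1-Cre nuclei they summed to 117.3 CPM, 82.4 CPM and 124.5 CPM in the same classes, with 3, 0 and 0 at 0. Both Faah and these markers were thus lowest in D2-like Oprm1-Cre nuclei. Across nuclei, rho of Faah with the mean level of these markers was -0.07, 0.05 and 0.10 in D1-like Oprm1-Cre, D2-like Slc32a1-Cre and D1-like Slc32a1-Cre nuclei. The part of oligodendrocyte RNA in the levels of Faah was not tested.

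**Figure D5:**
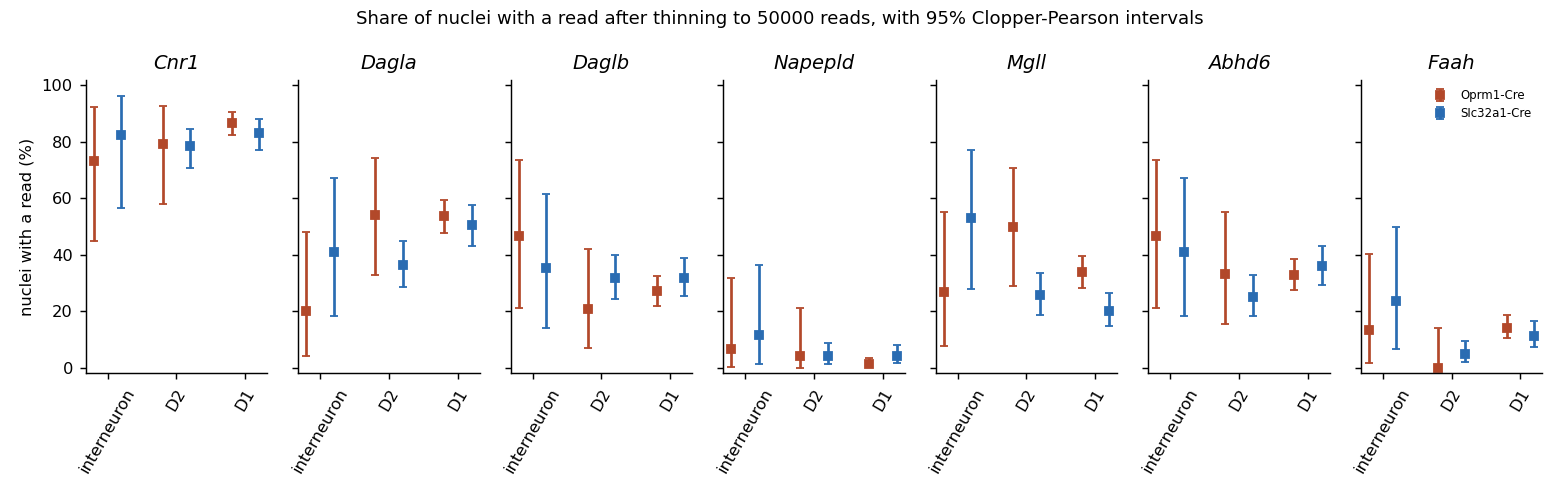
Share of nuclei with a read of each member after thinning to 50000 reads, with exact Clopper-Pearson 95% intervals, by class and plate. Cnr1 was read in 73.3% to 86.8% of nuclei of each group, and Faah in 0 of the D2-like Oprm1-Cre nuclei.

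Counted over the 7 genes, the members past a limit on the log2 ratio are given beside the share of all genes past it. A gene was measured in a comparison with at least 5 CPM in either sum, and past the limit with a log2 ratio above 0.5 or below -0.5. Between D2-like and D1-like Oprm1-Cre nuclei, 4 of 6 measured members were past it, where 49.6% of all measured genes were. Cnr1 and Mgll were higher, as were 19.3% of genes, and Daglb and Faah lower, as were 30.3%. Mgll stayed past the limit in 8 of 10 alternatives. With Slc32a1-Cre it was 0 of 7, where 25.2% of genes were past it, 10.4% higher and 14.9% lower. No member was past the limit the same way in both plates, against 2.7% of genes higher and 5.97% lower in both. The median log2 ratio of the measured members was -0.10 with Oprm1-Cre and -0.21 with Slc32a1-Cre, and that of all measured genes -0.10 and -0.03.

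Between interneuron-like and SPN-like Oprm1-Cre nuclei, 5 of 6 members were past the limit, where 70.3% of genes were, 2 of them higher (31.4% of genes) and 3 lower (38.9%). With Slc32a1-Cre it was 5 of 7, where 67% of genes were, 3 higher (30.4%) and 2 lower (36.6%). That count was 3 with DESeq2 size factors, 2 without possible doublets and 3 with clusters made with the members. Of 11 alternatives, Dagla was past the limit in 6, Daglb in 7, Mgll in 8, Napepld in 10 and Faah in 11. Dagla was the one member lower in both plates, as were 21.5% of genes, and none was higher in both, as were 15%. The median log2 ratio of the members was -0.59 with Oprm1-Cre and -0.06 with Slc32a1-Cre, beside -0.10 and -0.08 for all measured genes.

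Between Oprm1-Cre and Slc32a1-Cre nuclei, 5 of 7 members were past the limit in D2-like nuclei, where 52.7% of genes were, 2 higher (23.5% of genes) and 3 lower (29.2%). In D1-like nuclei it was 3 of 7, where 27% of genes were, 2 higher (14.8%) and 1 lower (12.2%). In interneuron-like nuclei it was 7 of 7, where 70.7% of genes were, 2 higher (34.9%) and 5 lower (35.8%). Mgll was higher with Oprm1-Cre in both SPN types, as were 4.98% of genes, and Napepld lower in both, as were 5.02%. For Napepld that rests on 1 and 5 Oprm1-Cre nuclei with reads.

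Of 36 further genes of the pathway, 35 have values in the tables. Other receptors of these lipids (Cnr2, Gpr55, Gpr18, Gpr119, Trpv1 and Ppara) reached 5 CPM in none of the sums compared, 0 of 6 measured each time, which leaves Cnr1 as the one such receptor with a measured level. Between D2-like and D1-like nuclei, 4 of 21 measured genes were higher and 4 lower with Oprm1-Cre, where 19.3% and 30.3% of all genes were. With Slc32a1-Cre 3 of 22 were higher and 3 lower, where 10.4% and 14.9% were. The median log2 ratio of the list was 0.13 and -0.01. Of 20 genes measured in both plates, 1 was higher in D2-like nuclei of both and 1 lower, where 2.7% and 5.97% of all genes were. The higher one was Chrm3, the M3 muscarinic receptor gene. The lower one was Pla2g4e, for an acyltransferase that makes precursors of anandamide. Chrm3 had 5.33 CPM in D2-like and 0.0364 CPM in D1-like Oprm1-Cre nuclei, and 16.99 CPM in D2-like Slc32a1-Cre nuclei against no read in the D1-like ones. Pla2g4e had 25.9 CPM in D2-like and 50.4 CPM in D1-like Oprm1-Cre nuclei, and 3.65 CPM and 10.5 CPM in those with Slc32a1-Cre.

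Of 20 pathway genes measured in both plates, 6 were lower in interneuron-like than in SPN-like nuclei of both. Higher in both were 3, where 21.5% of all genes were lower and 15% higher. Grm5, Chrm1 and Plcb1, which act upstream of diacylglycerol lipase, are among the lower ones. Grm5, the mGluR5 receptor gene, had 797 CPM in interneuron-like and 1459 CPM in SPN-like Oprm1-Cre nuclei, and 333.8 CPM and 1481 CPM in those with Slc32a1-Cre. Chrm1, the M1 muscarinic receptor gene, had 16.6 CPM in interneuron-like and 343.8 CPM in SPN-like nuclei with Oprm1-Cre, and 58.2 CPM and 386 CPM with Slc32a1-Cre. Plcb1, for a phospholipase C that makes diacylglycerol downstream of such receptors, had 141.1 CPM and 535 CPM with Oprm1-Cre, and 167.9 CPM and 505 CPM with Slc32a1-Cre, in the same classes. Its relative Plcb4 went the other way. It had 123.5 CPM in interneuron-like and 3.70 CPM in SPN-like Oprm1-Cre nuclei, and 62.3 CPM and 1.02 CPM in those with Slc32a1-Cre.

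The 6 pathway genes lower in interneuron-like nuclei of both plates are Gnao1, Plcb1, Abhd4, Hrasls, Grm5 and Chrm1. The 3 higher ones are Cnrip1, Plcb4 and Gdpd1. Cnrip1, for a protein that binds the tail of CB1, had 128.998 CPM in interneuron-like and 31.3 CPM in SPN-like Oprm1-Cre nuclei. With Slc32a1-Cre it had 109.7 CPM and 41.3 CPM in these classes. Cnr1 was lower in the interneuron-like sums, though not past the limit with Slc32a1-Cre. A relation between Cnrip1 and Cnr1 was not tested. In single plates, 7 of 20 measured genes were higher and 7 lower with Oprm1-Cre, where 31.4% and 38.9% of all genes were. With Slc32a1-Cre 6 of 23 were higher and 11 lower, where 30.4% and 36.6% were. The median log2 ratio of the list was 0.00 with Oprm1-Cre and -0.45 with Slc32a1-Cre.

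Between plates, 1 of 21 pathway genes measured in both SPN types was higher with Oprm1-Cre in both and 3 were lower, where 4.98% and 5.02% of all genes were. Pla2g4e was the higher one, with 25.9 CPM in Oprm1-Cre and 3.65 CPM in Slc32a1-Cre D2-like nuclei, and 50.4 CPM and 10.5 CPM in D1-like nuclei. Among the lower ones, Plcb2 and Ptgs2 had at most 10.9 CPM in any of these D2-like and D1-like sums.

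Across nuclei, levels of the enzymes varied little with Cnr1 or with each other. Over the 21 pairs of members, rho ran from -0.10 to 0.18 in D1-like Oprm1-Cre nuclei. In Slc32a1-Cre nuclei it ran from -0.14 to 0.11 in D2-like and from -0.11 to 0.16 in D1-like nuclei. Cnr1 and Dagla were read together in 47.6% of thinned D1-like Oprm1-Cre nuclei, where the product of their shares is 46.6%. Together they were read in 30.4% of D2-like and 43.3% of D1-like Slc32a1-Cre nuclei, where the products are 28.6% and 41.9%. Of the D1-like Oprm1-Cre nuclei, 11.5% had no read of any enzyme gene, 39.2% had reads of 1, 27.7% of 2, 18.2% of 3 and 3.38% of 4. At levels this low a nucleus without a read may still hold the transcript, and weak correlations are no finding.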

How the data were processed

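The deposited values are whole-number read counts per gene and well, which the authors gave in 1 table per genotype and 1 joint table that holds the same values. Per the submitters' processing notes the build is mm10, with SAMtools and Seurat as tools. Nothing in the sources used here names the aligner, the counting tool or the strand setting. The labels' protocols name a column kit and a stranded total RNA kit, which do not describe the handling of single nuclei. Labels of 1 genotype name the other plate's number, so wells were assigned by column names, each of which ends 1 sample title. There are no molecular identifiers, so several reads may be copies of 1 molecule. Intervals and floors cover the counting of reads only and may be too narrow for transcripts.

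Wells with at least 20000 reads on genes and 1000 genes were kept, without 92 spike-ins, which took a median of 23.9% of reads per Oprm1-Cre and 22.2% per Slc32a1-Cre nucleus, and 1 reporter entry. Nuclei were clustered with the members and pathway genes left out (2000 variable genes, 30 components, 15 neighbours, Leiden resolution 1, Python 3.11.15, leidenalg 0.10.2), and the interneuron cluster was clustered again. Clusters were named from marker lists. SPN-like nuclei were typed where the mean log2(CPM + 1) of 7 D1 and of 7 D2 markers differed by more than 2. Nuclei in which another class's markers led were set aside (4 Oprm1-Cre and 3 Slc32a1-Cre). No doublet caller was run, and possible doublets were left out in 1 alternative.

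Reads were summed per class and plate. Gene positions and exon lengths are from GENCODE M21. TMM factors (edgeR 4.0.16) and size factors (DESeq2 1.42.0) served as alternative scalings only. Ratio intervals were tested on simulated counts. Named genes are the 7 members, pathway genes past the limit in both plates or both SPN types, and the 5 genes most like Cnr1. A gene that met this rule is not reported here. The members and lists were chosen with earlier results of these data known.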

Additional observations from a re-analysis of the deposited data

Results flagged for a closer look

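For Cnr1 the D2-like over D1-like log2 ratio had opposite signs in the plates, 0.68 with Oprm1-Cre and -0.22 with Slc32a1-Cre. Of Oprm1-Cre over Slc32a1-Cre, the log2 ratio of Cnr1 was 0.79 in D2-like and -0.11 in D1-like nuclei. That of Faah was -1.99 in D2-like nuclei, where Oprm1-Cre had no read, so that the value depends on the 5 CPM added, and 0.68 in D1-like nuclei. In interneuron-like over SPN-like nuclei, Daglb had 1.05 with Oprm1-Cre and -0.54 with Slc32a1-Cre, and Mgll had -1.47 and 0.65. With 1 plate per genotype none of these differences was tested.

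Wells that were not kept held some Cnr1. In 29 such Oprm1-Cre wells there were 10 Cnr1 reads, at most 2 in a well, among 22834 reads on genes, which is 438 CPM (210.01 to 805) against the 131.4 CPM that 3 reads would give.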

How the results depend on the processing

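No paired analysis was possible because each genotype is 1 plate, no test was made, and replicate numbers in accession order pair nothing. Of the counts of members past the limit and the shares of nuclei with a Cnr1 read, 97 alternative values stayed within 1.5 times or within the interval and 4 did not. Between D2-like and D1-like Slc32a1-Cre nuclei, the count was 0 and became 1 with 1 CPM added. Between interneuron-like and SPN-like Slc32a1-Cre nuclei it was 5, and became 3 with DESeq2 size factors, 2 without possible doublets and 3 with clusters made with the members. The causes were not tested. Of the alternative log2 ratios of single members, 392 (74.7%) lay within the counting interval and 25.3% outside it, and no ratio past the limit changed sign. With at least 100000 reads per nucleus, or with clusters made with the members, the interneuron-like Oprm1-Cre nuclei were the 3 Sst ones, with 106.1 CPM of Cnr1. The median log2 ratio of all measured genes lay between -0.16 and 0.03 under TMM and DESeq2 scaling. The 24 D2-like Oprm1-Cre nuclei and the 32 interneurons limit what these sums can show.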

Other observations

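Among 7 nuclei set aside, 2 led by cholinergic markers (442 and 1405 CPM of Chat) had 0 and 4.52 CPM of Cnr1. The oligodendrocyte-led Slc32a1-Cre nucleus had 0 CPM of Cnr1 and 1077 CPM of Faah. In the Oprm1-Cre plate, a nucleus led by oligodendrocyte markers and one led by precursor markers, both with SPN markers at nearly the same level, had 2814 and 74.5 CPM of Cnr1. The other 2, also of the Oprm1-Cre plate, had 1449 CPM where the list with Pthlh, Pvalb, Th, Kit and Trh led and 0 CPM where general interneuron markers led.

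In the SPN-like nuclei undecided between the types, Cnr1 summed to 1472 CPM (1419 to 1526) over 14 Oprm1-Cre and 1642 CPM (1596 to 1689) over 18 Slc32a1-Cre nuclei. A cluster of SPN-like nuclei led by Tnfaip6, Cpne7 and Col11a1 spread over all types. In its undecided nuclei Cnr1 was at 81.1 CPM over 4 Oprm1-Cre and 2974 CPM over 6 Slc32a1-Cre nuclei. Its 1 D2-like and 1 D1-like Oprm1-Cre nucleus were at 0 and 15.4 CPM, and its 2 D2-like and 2 D1-like Slc32a1-Cre nuclei at 6003 and 5629 CPM.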
